A study of Homo sapiens with 8 samples.

Results

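The TRIM (tripartite motif) family of ubiquitin ligases was examined in LNCaP and PC3, 2 human prostate cancer lines in which miR-375 was overexpressed or not. The family was taken as every gene of the count table named TRIM followed by a number and at most 1 letter, with 10 or more counts summed over the 8 libraries. This gave 61 members out of 60622 genes. A further 13 genes fitted the name but had fewer counts, 5 of them 0 in every library. The lowest member was TRIM10 with 10 counts, and the highest gene outside was TRIM43B with 6. Of the 61 members, 60 are annotated as protein-coding and TRIM80P as a pseudogene. Relatives that carry other names, such as PML, were not members and are given separately.

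The 4 groups, with 2 libraries each, were LNCaP cells with miR-375 overexpressed, LNCaP controls, PC3 cells with miR-375 overexpressed and PC3 controls. LNCaP came from a metastasis in a lymph node and responds to androgen, whereas PC3 came from bone and does not depend on androgen. LNCaP was grown in 10% and PC3 in 20% fetal bovine serum, and a difference between the lines cannot be told apart from the serum share. The means and duration of the overexpression, and the nature of the controls (labelled NC), are not stated in the labels. The MIR375 gene had 0 counts in all 8 libraries of long RNA, so the table holds no measure of the overexpression. RNA was selected for poly(A) tails and sequenced as pairs, and the deposited values are counts per gene, with library totals from 33973861 to 41890528. Of the LNCaP markers, only KLK3 and KLK2 had 0 counts in both PC3 groups. The sum of 5 leukocyte markers was at most 1.80 CPM in any library. In PC3 libraries, 5 fibroblast markers summed to 138 to 389.9 CPM and 5 endothelial markers to 206 to 369 CPM. Nothing in the labels states that the 2 libraries of each group were separate cultures, and the tests therefore rest on a spread between libraries that may be technical.

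TRIM proteins typically have an N-terminal RING domain that recruits ubiquitin-conjugating (E2) enzymes, although some members, given below, lack it. Most also have 1 or more B-box zinc fingers and a coiled coil through which they assemble into dimers and larger arrays. The C-terminal part differs and chooses the partner: a PRY-SPRY domain in most, NHL repeats, a PHD finger with a bromodomain, or a COS box that binds microtubules. Many members act in the interferon response to viruses, either by binding viral parts or by ubiquitinating sensors and signalling proteins. Others serve as chromatin corepressors, as coactivators of steroid receptors, or in the cytoskeleton of neurons and muscle.

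The strand of miR-375 that enters Argonaute pairs with messenger RNAs through its seed, bases 2 to 8 from the 5′ end. The mature sequence is from RefSeq (GRCh38.p14, chr2:219001648-219001669, minus strand), with the seed in capitals. The 3′ untranslated regions (3′ UTRs) of the members were searched on the transcript strand for CGAACAA, the complement of bases 2 to 8, and for GAACAAA, the complement of bases 2 to 7 followed by A. They overlap where CGAACAAA occurs. For each gene 1 protein-coding transcript of GENCODE 29 (GRCh38) was searched, and 60 members had a 3′ UTR. The matches, all of the form GAACAAA, were found in 6 members and are shown because they include the member with the largest fall, TRIM6. Capitals mark the match, and each line is a stretch of the 3′ UTR.
hsa-miR-375-3p: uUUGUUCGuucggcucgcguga
TRIM6 (chr11:5612591-5612620, plus strand): tttatgcgcagGAACAAAcagctgttgagt
TRIM33 (chr1:114394836-114394865, minus strand): cagaaaactaaGAACAAAgtgttgctcagt
TRIM52 (chr5:181257065-181257094, minus strand): aaaaagaaaatGAACAAAgatttcacttat
TRIM38 (chr6:25985210-25985239, plus strand): tactcggggaaGAACAAAagttagtcacca
TRIM38 (chr6:25986067-25986096, plus strand): gaagaaaatagGAACAAAagaatatatact
TRIM38 (chr6:25986551-25986580, plus strand): aataatgtgggGAACAAAagaaaaaagaag
TRIM39 (chr6:30343696-30343725, plus strand): aaaataatatgGAACAAAggatccactgaa
TRIM66 (chr11:8612054-8612083, minus strand): tatacattcaaGAACAAAtaaaaaacagca

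Of the 50 members that passed the filter on low counts, these 6 (12%) held a match, against 14.8% of the 14784 tested genes with a 3′ UTR. In PC3, TRIM6 fell with miR-375, TRIM33, TRIM38 and TRIM52 rose, and TRIM39 and TRIM66 did not pass the test. In LNCaP, TRIM33 fell, TRIM6 had 0 counts in all 4 libraries, and the other 4 did not pass. Among all tested genes with a match 37.2% fell in PC3 and 37.1% in LNCaP, while 25.4% and 23.5% of those with none did. The median 3′ UTR was 2889 bases in genes with a match and 852 bases in genes with none. A match is a description of the sequence and does not show that miR-375 binds there.

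The promoters of the members were searched for the core of the element that interferon-activated factors bind, GAAA, any 2 bases and GAAA again, on both strands and with overlaps allowed. RefSeq promoters of 300 bases, from 250 before to 50 after the start of the gene, were matched by symbol for 46 of the 61 members. The motif occurred in 9 of them (19.6%), against 3.65% of all 27305 promoters and 2.97% of the 12808 of tested genes. The 9 were TRIM2, TRIM5, TRIM14, TRIM16, TRIM21, TRIM26, TRIM34, TRIM44 and TRIM69. Of these, TRIM21 rose in both lines, TRIM5 and TRIM26 in LNCaP, and TRIM14 and TRIM16 in PC3. TRIM44 fell in both, TRIM2 and TRIM69 did not pass in either, and TRIM34 had too few counts to be tested. Of the other interferon members, TRIM38 rose in PC3 and TRIM56 in both lines with no match in their promoters. TRIM6, TRIM25 and TRIM65, which fell in at least 1 line, had no match either. TRIM22, which rose in both lines, was not among the promoters searched. The promoters of 4 members of the interferon group that rose follow (GRCh38.p14, 5′ to 3′ on the gene's strand), with the motif in capitals.
TRIM21 (chr11:4393653-4393952, minus strand): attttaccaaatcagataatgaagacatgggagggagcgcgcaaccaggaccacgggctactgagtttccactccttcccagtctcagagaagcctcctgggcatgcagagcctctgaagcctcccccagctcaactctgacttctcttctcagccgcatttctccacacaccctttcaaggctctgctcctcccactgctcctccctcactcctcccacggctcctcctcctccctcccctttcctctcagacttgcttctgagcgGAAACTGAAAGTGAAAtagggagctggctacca
TRIM5 (chr11:5685025-5685324, minus strand): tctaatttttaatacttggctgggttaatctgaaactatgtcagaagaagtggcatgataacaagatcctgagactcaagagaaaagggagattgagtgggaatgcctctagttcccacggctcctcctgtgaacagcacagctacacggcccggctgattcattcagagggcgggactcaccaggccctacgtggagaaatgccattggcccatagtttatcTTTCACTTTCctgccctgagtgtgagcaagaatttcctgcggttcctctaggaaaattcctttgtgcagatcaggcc
TRIM26 (chr6:30213357-30213656, minus strand): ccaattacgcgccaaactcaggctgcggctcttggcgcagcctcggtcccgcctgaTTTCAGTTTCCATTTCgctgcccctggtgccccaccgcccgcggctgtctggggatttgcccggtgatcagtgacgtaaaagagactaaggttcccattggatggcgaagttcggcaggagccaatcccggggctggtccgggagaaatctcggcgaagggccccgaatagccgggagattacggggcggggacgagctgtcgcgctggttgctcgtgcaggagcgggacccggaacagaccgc
TRIM14 (chr9:98119173-98119472, minus strand): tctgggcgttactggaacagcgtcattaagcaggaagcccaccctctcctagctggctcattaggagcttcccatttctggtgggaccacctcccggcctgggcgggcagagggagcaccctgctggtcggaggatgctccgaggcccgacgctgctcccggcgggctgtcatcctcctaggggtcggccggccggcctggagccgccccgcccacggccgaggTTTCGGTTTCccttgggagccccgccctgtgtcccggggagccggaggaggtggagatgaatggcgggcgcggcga

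Levels are given as CPM (counts scaled by the TMM-adjusted library size), for the first and then the second library of a group. Changes are on the log2 scale, miR-375 over control, ± SE from edgeR's quasi-likelihood test, fitted to all 21066 genes that passed the filter. The p-values were adjusted by Benjamini-Hochberg over those genes, and "rose" or "fell" is used of genes with an adjusted p under 0.05. In LNCaP, 9 of the 50 tested members rose and 10 fell, against a background of 13.9% rising and 18.7% falling among all tested genes. In PC3, 18 rose and 9 fell, against 22.2% and 20.8%. As shares of the tested members these were 18.0% and 20.0% in LNCaP and 36.0% and 18.0% in PC3. In either direction, 38.0% of the members changed in LNCaP, against 32.6% of all tested genes, and 54.0% in PC3, against 43.0%. The median change of the tested members was -0.00036 in LNCaP and 0.15 in PC3, with medians over all tested genes of 0 and 0.02. In LNCaP, 2 members (4% of those tested) rose at least 2-fold, TRIM22 and TRIM74, and 0 fell so far, against 2.41% and 2.21% of all tested genes. In PC3, 4 members (8%) rose at least 2-fold, TRIM9, TRIM31, TRIM54 and TRIM71, and 1 (2%) fell so far, TRIM6, against 6.92% and 3.65% of all tested genes.

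**Figure D1:**
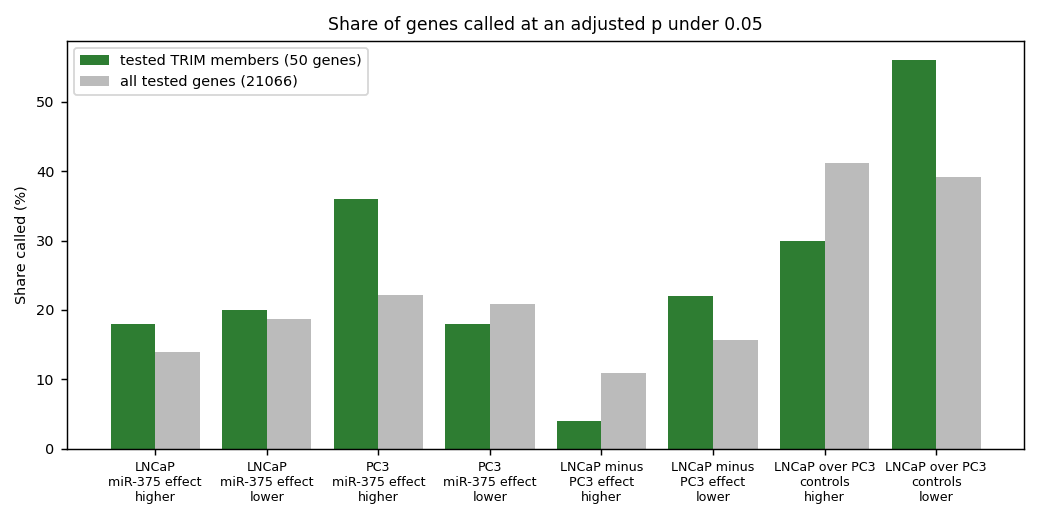
Share of genes (%) called higher or lower at an adjusted p under 0.05 in each comparison, for the 50 tested TRIM members (green) and all 21066 tested genes (grey). The members' share of rising genes in PC3 was 36.0%, with 22.2% among all genes.

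The choice of scaling bears on these small changes. With total counts in place of TMM, the median change of all tested genes in LNCaP moved up by 0.121 on the log2 scale, and 4719 genes rose and 2613 fell there, in place of 2927 and 3933. Of the members, 12 then rose and 3 fell in LNCaP, and 22 rose and 6 fell in PC3. Without any 1 of the 4 LNCaP libraries, 4 to 6 members fell in LNCaP in place of 10. TRIM11, TRIM25 and TRIM28 fell in LNCaP under all 16 alternatives run, and TRIM5, TRIM21, TRIM22, TRIM26, TRIM46, TRIM56 and TRIM68 rose there under all 16. In PC3, 12 of the 18 rises and 5 of the 9 falls passed under all 16.

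In all, 5 members rose in both lines: TRIM21, TRIM22, TRIM46, TRIM56 and TRIM68, which are 5 of the 9 that rose in LNCaP and 5 of the 18 that rose in PC3. They make 10% of the 50 tested members, against 7.10% of all tested genes that rose in both. Another 6 fell in both: TRIM8, TRIM24, TRIM25, TRIM28, TRIM44 and TRIM47, which are 6 of 10 in LNCaP and 6 of 9 in PC3. These are 12% of the tested members, against 10.5% of all tested genes. Under all 16 alternatives in both lines, only TRIM25 and TRIM28 kept the shared fall, and TRIM46, TRIM56 and TRIM68 the shared rise. TRIM33 fell in LNCaP and rose in PC3 (2% of members), as did 2.57% of all tested genes. The lines share no control libraries.

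**Figure D2:**
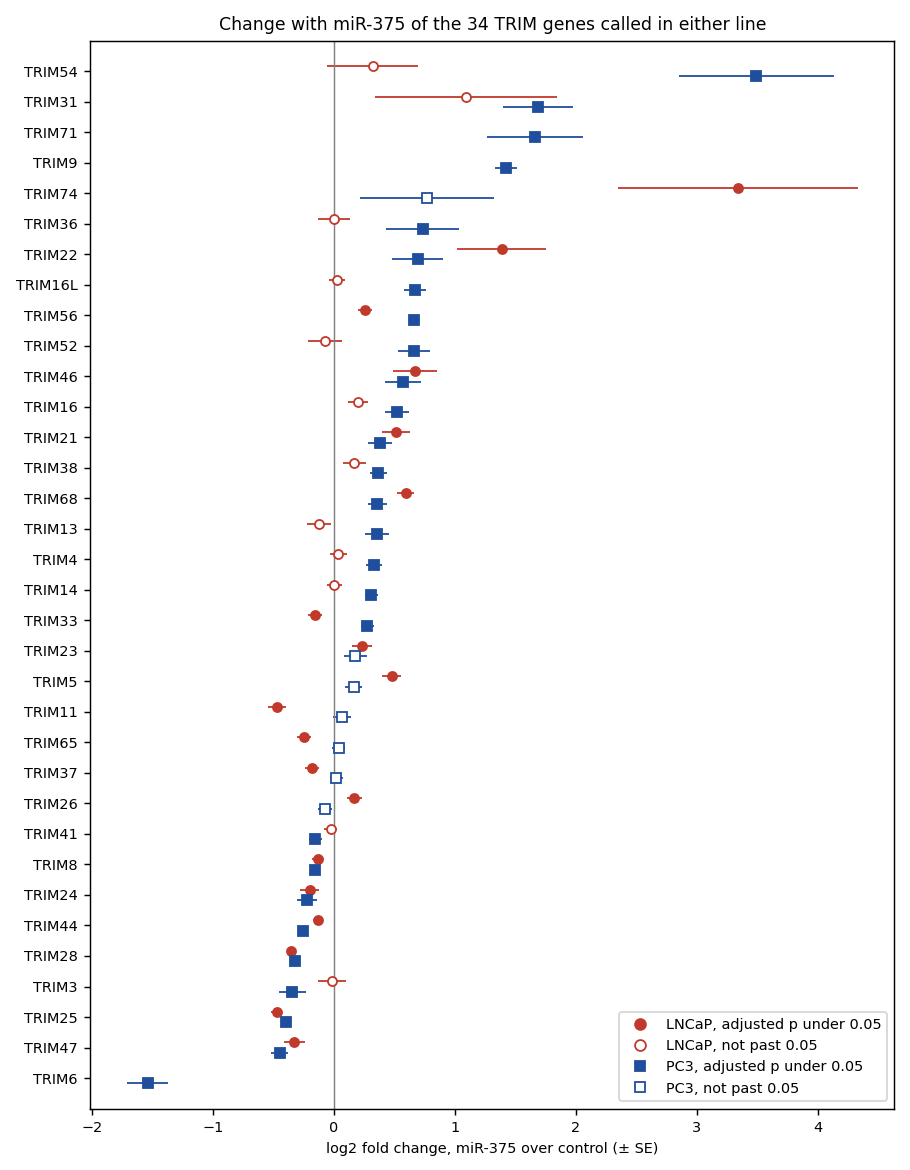
Log2 fold change with miR-375 over control (± SE) of the 34 members called in either line, with LNCaP as circles and PC3 as squares, filled where the adjusted p was under 0.05, ordered by the change in PC3. Changes in LNCaP of TRIM6, TRIM9 and TRIM71, which had fewer than 12 counts over the 4 libraries of that line, are not drawn. TRIM6 stands lowest in PC3 at -1.54, and TRIM54, TRIM31, TRIM71 and TRIM9 stand highest.

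The members known for antiviral defence and interferon signalling changed in both directions in each line. Of 12 listed, 11 were tested; 5 rose and 2 fell in each line, beside 13.9% rising and 18.7% falling among all tested genes in LNCaP and 22.2% and 20.8% in PC3, with a median of 0.17 in LNCaP and 0.16 in PC3. TRIM22, an interferon-induced restriction factor, had 1.25 and 0.914 CPM in LNCaP cells with miR-375, against 0.393 and 0.430 CPM in LNCaP controls. Both libraries with miR-375 stood above both controls, at a trace level (1.39 ± 0.37, adjusted p = 0.00298). In PC3, TRIM22 had 6.45 and 8.12 CPM with miR-375, against 4.54 and 4.46 CPM in controls. It rose there by 0.69 ± 0.21, adjusted p = 0.00679, although the call ended without the second PC3 library with miR-375 (adjusted p = 0.134). In these bulk libraries, a change in the share of cells that express a gene and a change in its RNA per cell cannot be told apart.

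TRIM21, a cytosolic antibody receptor that targets antibody-coated viruses for degradation, had 15.6 and 15.7 CPM in LNCaP cells with miR-375, against 9.76 and 12.1 CPM in LNCaP controls. It rose by 0.51 ± 0.11, adjusted p = 0.000436. The values in PC3 were 26.8 and 23.9 CPM with miR-375, against 20.1 and 18.8 CPM in controls, and it rose by 0.38 ± 0.10, adjusted p = 0.00241; without the first PC3 library with miR-375 the adjusted p was 0.0683. TRIM56, an interferon-induced ligase with antiviral activity, had 206 and 205 CPM in PC3 cells with miR-375, against 132 and 127 CPM in PC3 controls, the groups lying far apart (0.67 ± 0.04, adjusted p = 4.03e-15). The values in LNCaP were 36.3 and 34.5 CPM with miR-375, against 28.9 and 30.4 CPM in controls, a smaller rise (0.26 ± 0.06, adjusted p = 0.000516).

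TRIM25, which ubiquitinates the RNA sensor RIG-I and was first found as an oestrogen-responsive gene, went the other way. It had 85.8 and 85.2 CPM in LNCaP cells with miR-375, against 114 and 123 CPM in LNCaP controls, a fall of 1.39-fold (-0.47 ± 0.04, adjusted p = 4.51e-11). PC3 libraries had 193 and 184 CPM with miR-375, against 249.5 and 247 CPM in controls (-0.40 ± 0.04, adjusted p = 2.10e-10). In neither line did the groups overlap. TRIM6, which builds free ubiquitin chains that activate a kinase of the interferon pathway, had the largest fall of the family. In PC3 it had 5.79 and 5.24 CPM with miR-375, against 17.8 and 14.4 CPM in controls, a fall of 2.91-fold (-1.54 ± 0.17, adjusted p = 2.16e-09). In LNCaP it had 0 counts in all 4 libraries, so no change could be read there. Of the exon length of TRIM6, 29.3% is shared with the readthrough gene TRIM6-TRIM34.

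TRIM5, which binds the capsid of retroviruses, had 32.6 and 32.5 CPM in LNCaP cells with miR-375, against 23.9 and 22.8 CPM in LNCaP controls (0.48 ± 0.08, adjusted p = 4.84e-06). Its level in PC3 was 45.8 and 47.6 CPM with miR-375, against 44.3 and 39.2 CPM in controls, a change that did not pass (0.16 ± 0.07, adjusted p = 0.0649), though it did with total-count scaling (0.00601), limma-voom (0.0417), halved counts (0.0381) and without the first PC3 control (0.0196). TRIM26, which promotes degradation of the transcription factor IRF3, had 58.4 and 59.6 CPM in LNCaP cells with miR-375, against 52.4 and 52.5 CPM in LNCaP controls (0.17 ± 0.06, adjusted p = 0.0247). PC3 gave 58.1 and 61.9 CPM with miR-375, against 65.3 and 61.3 CPM in controls, with groups that overlapped (-0.08 ± 0.06, adjusted p = 0.302).

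TRIM14 and TRIM38 rose in PC3. TRIM14, an adaptor in antiviral signalling at mitochondria, had 97.6 and 102 CPM in PC3 cells with miR-375, against 84.1 and 76.6 CPM in PC3 controls (0.31 ± 0.06, adjusted p = 1.38e-05). TRIM38, a regulator of innate immune signalling, had 64.9 and 65.4 CPM in PC3 cells with miR-375, against 48.2 and 52.9 CPM in PC3 controls (0.37 ± 0.07, adjusted p = 3.57e-05). In LNCaP, TRIM14 had 40.4 and 41.8 CPM with miR-375, against 39.7 and 42.2 CPM in controls (0.00 ± 0.06, adjusted p = 0.998). TRIM38 there had 13.3 and 13.5 CPM in LNCaP cells with miR-375, against 12.6 and 11.3 CPM in LNCaP controls, a change that did not pass (0.17 ± 0.09, adjusted p = 0.177), but did with total-count scaling (0.0126) and without the first LNCaP control (0.0496).

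TRIM65, a ligase of the RNA sensor MDA5, had 52.8 and 54.5 CPM in LNCaP cells with miR-375, against 62.8 and 64.7 CPM in LNCaP controls (-0.25 ± 0.06, adjusted p = 0.000538), a fall that did not pass with total-count scaling (0.0827). TRIM69 did not pass in either line, with changes of -0.13 in LNCaP and 0.13 in PC3. TRIM34, a close relative of TRIM5 and TRIM6, was close to 0, with 0.191 and 0.0475 CPM in PC3 cells with miR-375, against 0.349 and 0.104 CPM in PC3 controls, and it had at most 0.0573 CPM in the LNCaP libraries.

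Interferon-stimulated genes outside the family were read beside these members. Of 32 tested, 15 rose and 2 fell in LNCaP (median 0.41), and 25 rose and 0 fell in PC3 (median 0.49). The largest rises were those of OASL (2.21) and IFIT3 (1.95) in LNCaP and of BST2 (3.10) and IFI27 (2.03) in PC3, while OAS2 (-1.31) and OAS3 (-0.41) fell in LNCaP. Of 20 tested genes of RIG-I and interferon signalling, 6 rose and 1 fell in LNCaP, and 8 rose and 2 fell in PC3. For both lists, the background over the 21066 genes was 13.9% rising and 18.7% falling in LNCaP. In PC3 that background was 22.2% rising and 20.8% falling. IRF7 (0.69) and the RIG-I gene DDX58 (0.52) rose most in LNCaP, and IFIH1 (1.01) and IRF9 (0.91) in PC3. The receptor gene IFNAR1 fell in both (-0.31 and -0.28), and TYK2 fell in PC3 (-0.15). The part of these genes in the members' rises was not tested.

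**Figure D3:**
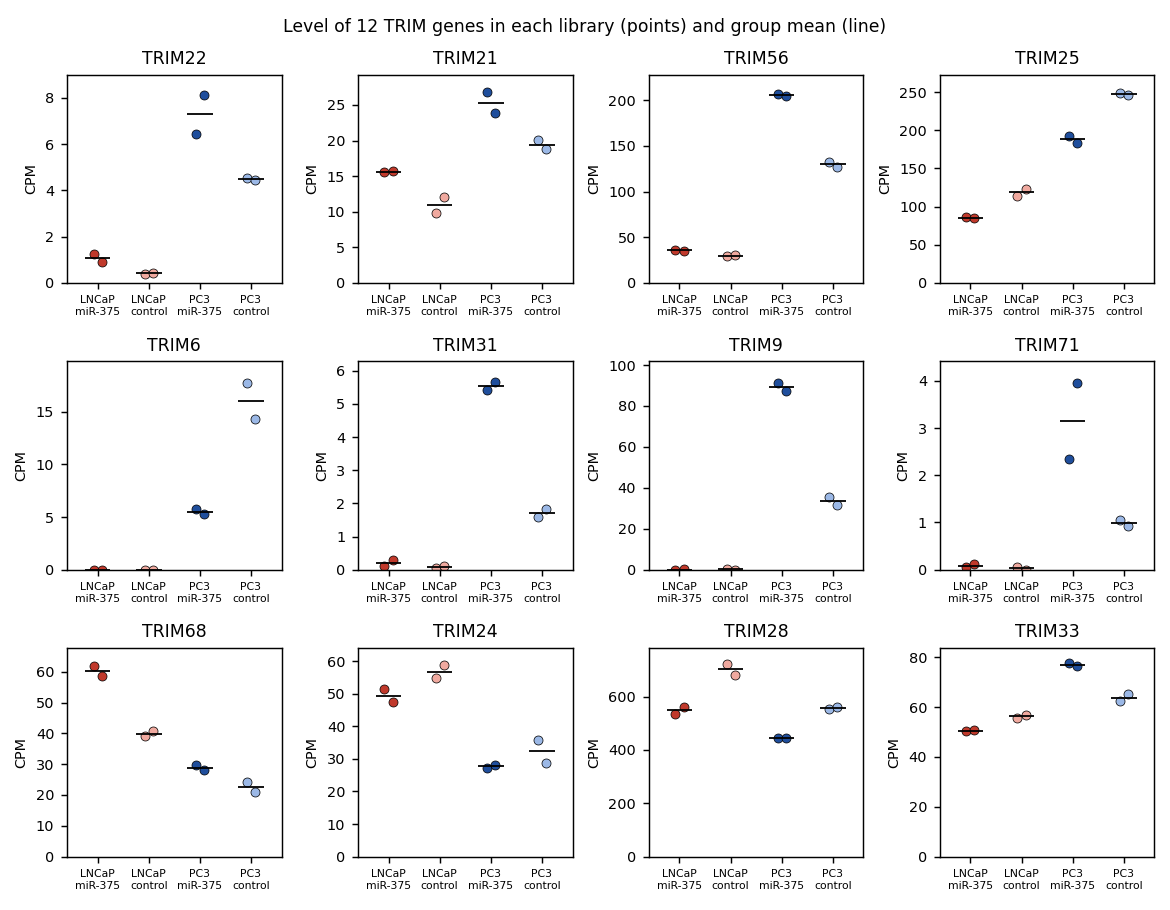
CPM in each library (points) and the mean of 2 libraries (line) for 12 members, with the 4 groups from left to right. TRIM22, TRIM21 and TRIM56 lay higher with miR-375 in both lines and TRIM25, TRIM24 and TRIM28 lower, while TRIM33 was lower in LNCaP and higher in PC3. The TRIM24 call ended under 11 of 16 alternatives in LNCaP and 6 of 16 in PC3.

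The chromatin members with a PHD finger and a bromodomain fell, apart from TRIM33 in PC3 and TRIM66. All 4 were tested, of which 3 fell in LNCaP, and 2 fell and 1 rose in PC3. Of all tested genes, 18.7% fell in LNCaP, and 20.8% fell and 22.2% rose in PC3. TRIM28, the corepressor that KRAB zinc-finger proteins recruit to silence retroelements, had the highest level per kilobase in both lines. It had 535 and 562 CPM in LNCaP cells with miR-375, against 723 and 682 CPM in LNCaP controls, a fall of 1.28-fold (-0.36 ± 0.03, adjusted p = 7.88e-11). The values in PC3 were 444 and 446 CPM with miR-375, against 553 and 559 CPM in controls (-0.32 ± 0.03, adjusted p = 5.26e-10), and neither pair of groups overlapped. TRIM28 made up 27.7% of the summed CPM of the family in LNCaP with miR-375 and 32.2% in LNCaP controls, and 17.4% and 21.6% in the same groups of PC3.

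TRIM24, a nuclear receptor coregulator that also ubiquitinates p53, had 51.4 and 47.5 CPM in LNCaP cells with miR-375, against 54.9 and 58.8 CPM in LNCaP controls. The fall was small (-0.20 ± 0.08, adjusted p = 0.0395) and did not pass under 11 of 16 alternatives, total-count scaling (0.474) and leaving out any LNCaP library or either PC3 library with miR-375 among them. PC3 libraries had 27.3 and 28.2 CPM with miR-375, against 35.9 and 28.7 CPM in controls (-0.22 ± 0.08, adjusted p = 0.0256). The first PC3 control stood above the other 3 libraries, and without it the change was -0.05 (adjusted p = 0.740). The call also ended without either PC3 library with miR-375 (0.141 and 0.0659).

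TRIM33, which acts on SMAD4 in transforming growth factor signalling, was the member called in opposite directions. It had 77.5 and 76.6 CPM in PC3 cells with miR-375, against 62.3 and 65.1 CPM in PC3 controls (0.27 ± 0.05, adjusted p = 5.94e-05). LNCaP libraries had 50.3 and 50.7 CPM with miR-375, against 55.8 and 56.8 CPM in controls (-0.16 ± 0.06, adjusted p = 0.0315); that small fall did not pass under 8 of 16 alternatives, leaving out any LNCaP library among them (adjusted p between 0.222 and 0.352). TRIM66 did not pass (-0.36 in LNCaP and 0.13 in PC3).

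Of 14 partners of TRIM28 in silencing, 6 fell and 0 rose in LNCaP, and 6 fell and 3 rose in PC3. The corresponding shares of all tested genes were 18.7% falling and 13.9% rising in LNCaP, and 20.8% and 22.2% in PC3. The heterochromatin protein genes CBX3 (-1.85 in LNCaP and -1.58 in PC3) and CBX5 (-0.71 and -1.16) fell most. ZNF10 (0.69) and ATF7IP (0.28) rose most in PC3. All 15 listed cell cycle genes fell in both lines, with medians of -1.25 in LNCaP and -1.15 in PC3. The largest falls were those of MCM4 (-1.58) and MCM2 (-1.55) in LNCaP, and of BIRC5 (-1.40) and TOP2A (-1.40) in PC3. The part of the cell cycle genes' fall in that of TRIM28, TRIM25 and TRIM24 was not tested.

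Among members tied to steroid receptors, TRIM68 rose in both lines. TRIM68, a ligase that acts as a steroid receptor coactivator, had 61.7 and 58.5 CPM in LNCaP cells with miR-375, against 39.0 and 40.7 CPM in LNCaP controls. The rise was 1.51-fold (0.59 ± 0.07, adjusted p = 2.17e-08), with the groups apart. In PC3 it had 29.8 and 28.0 CPM with miR-375, against 24.2 and 20.9 CPM in controls (0.36 ± 0.08, adjusted p = 0.000251). TRIM16, found as an oestrogen-responsive B-box protein, had 13.6 and 13.4 CPM in PC3 cells with miR-375, against 10.0 and 8.72 CPM in PC3 controls (0.52 ± 0.10, adjusted p = 4.50e-05). In LNCaP it had 48.7 and 43.5 CPM with miR-375, against 39.0 and 41.6 CPM in controls, a change that did not pass (0.20 ± 0.08, adjusted p = 0.0672), though it passed under 8 of 16 alternatives, including without the second LNCaP control (0.0461) and without the second LNCaP library with miR-375 (0.0114). TRIM16L, a shorter copy of TRIM16, had 13.6 and 15.2 CPM in PC3 cells with miR-375, against 9.41 and 8.62 CPM in PC3 controls (0.67 ± 0.09, adjusted p = 1.29e-07), and a change of 0.03 in LNCaP. Reads of TRIM16 and TRIM16L may be split between them by the counting, so each is uncertain. Over the 6 listed steroid receptor members, 1 rose and 3 fell in LNCaP, and 3 rose and 3 fell in PC3. All tested genes gave 13.9% rising and 18.7% falling in LNCaP, and 22.2% and 20.8% in PC3.

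Of the 8 listed members with a COS box, which bind microtubules, 4 passed the filter (TRIM9, TRIM36, TRIM46 and TRIM54). These 4 rose in PC3, where 22.2% of all tested genes rose, but the TRIM36 call was borderline and ended under 12 of 16 alternatives. In LNCaP, 1 of the 4 rose and 0 fell, against 13.9% rising and 18.7% falling among all tested genes. MID1, a COS-box relative with another name, fell in PC3 (-0.30). TRIM9, a neuronal ligase of axon guidance, had 91.4 and 87.3 CPM in PC3 cells with miR-375, against 35.3 and 31.4 CPM in PC3 controls, a 2.68-fold rise (1.42 ± 0.09, adjusted p = 8.50e-15). DESeq2 gave nearly the same change (1.41) with an adjusted p of 0.432. TRIM9 was almost absent from LNCaP, with counts of 0 and 4 with miR-375 and 6 and 0 in the controls.

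TRIM46, which organises microtubules at the start of the axon, rose in both lines. It had 4.55 and 4.57 CPM in LNCaP cells with miR-375, against 3.02 and 2.72 CPM in LNCaP controls (0.67 ± 0.18, adjusted p = 0.00403). Its level in PC3 was 10.8 and 11.2 CPM with miR-375, against 7.46 and 7.37 CPM in controls (0.57 ± 0.15, adjusted p = 0.00177), and the groups did not overlap in either line. TRIM54, a muscle ligase, had 0.619 and 1.16 CPM in PC3 cells with miR-375, against 0.150 and 0 CPM in PC3 controls; these were 26 and 49 counts against 6 and 0, so its rise has little precision (3.49 ± 0.64, adjusted p = 2.06e-05). TRIM36, a microtubule-binding ligase, was a borderline call, with 1.00 and 0.949 CPM in PC3 cells with miR-375, against 0.749 and 0.415 CPM in PC3 controls (0.73 ± 0.30, adjusted p = 0.0494). The alternatives that ended the call included those without the second PC3 control (0.425), either PC3 library with miR-375 (0.147 and 0.101) or any LNCaP library. TRIM55, TRIM63 and TRIM67 had too few counts to be tested, and TRIM42 had 0 in every library.

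Of the 4 members with NHL repeats, TRIM71 rose and TRIM3 fell in PC3, and none passed in LNCaP. Of all tested genes, 22.2% rose and 20.8% fell in PC3, and 13.9% and 18.7% in LNCaP. TRIM71, an RNA-binding protein of embryonic stem cells whose transcript is a classical let-7 target, had 2.33 and 3.96 CPM in PC3 cells with miR-375, against 1.05 and 0.934 CPM in PC3 controls (1.66 ± 0.40, adjusted p = 0.000674). Without the second PC3 library with miR-375, the higher of that pair, the change was 1.23 and the adjusted p 0.0700. TRIM71 had at most 0.111 CPM in any LNCaP library. TRIM3, a brain-enriched ligase, had 13.2 and 14.5 CPM in PC3 cells with miR-375, against 17.7 and 17.5 CPM in PC3 controls (-0.34 ± 0.11, adjusted p = 0.0105; 0.107 without the first PC3 library with miR-375). TRIM2, which acts on neurofilament light chain in neurons, had 16.6 and 13.9 CPM in LNCaP cells with miR-375, against 14.3 and 16.0 CPM in LNCaP controls. PC3 gave 46.4 and 45.0 CPM with miR-375, against 48.3 and 45.9 CPM in controls, and the groups overlapped in both lines (log2 changes 0.01 in LNCaP and -0.04 in PC3; TRIM2 changed sign in LNCaP without the first control or the first library with miR-375, and in PC3 with total-count scaling). TRIM32, mutated in a limb-girdle muscular dystrophy, had 32.3 and 33.5 CPM in LNCaP cells with miR-375, against 30.3 and 32.3 CPM in LNCaP controls. The values in PC3 were 29.8 and 29.6 CPM with miR-375, against 28.2 and 28.4 CPM in controls, and neither change passed (0.07 and 0.07).

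Members without a RING domain, which include TRIM14, TRIM16, TRIM16L and TRIM66 above, also hold TRIM44 and TRIM29. Over these 6, 0 rose and 1 fell in LNCaP, and 3 rose and 1 fell in PC3. Beside these stood 13.9% rising and 18.7% falling among all tested genes in LNCaP, and 22.2% and 20.8% in PC3. TRIM44, which has a ubiquitin-protease-like zinc finger, had 179 and 175 CPM in PC3 cells with miR-375, against 211 and 212 CPM in PC3 controls (-0.25 ± 0.04, adjusted p = 2.06e-06). Its level in LNCaP was 146 and 143 CPM with miR-375, against 153 and 165 CPM in controls (-0.13 ± 0.04, adjusted p = 0.0112), a fall that did not pass under 7 of 16 alternatives, leaving out the second control or either library with miR-375 among them. TRIM29, a gene of basal and squamous epithelium, had 1.95 and 2.66 CPM in LNCaP cells with miR-375, against 3.66 and 4.01 CPM in LNCaP controls, a change that did not pass (-0.73 ± 0.34, adjusted p = 0.0950), but passed with limma-voom (0.0268), LNCaP fitted alone (0.00554) and halved counts (0.0231). In PC3 it had 0 and 2 counts with miR-375 and 0 and 0 in the controls.

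Of 5 members with a membrane anchor, a MATH, ADP-ribosylation factor or filamin domain, 1 rose and 1 fell in LNCaP. In PC3, 1 rose and 0 fell. Shares of all tested genes were 13.9% rising and 18.7% falling in LNCaP, and 22.2% and 20.8% in PC3. TRIM37, a ligase that limits centrosome assembly, had 50.1 and 48.0 CPM in LNCaP cells with miR-375, against 56.6 and 54.7 CPM in LNCaP controls (-0.18 ± 0.06, adjusted p = 0.0143), and the call did not pass under 8 of 16 alternatives, including leaving out any LNCaP library. PC3 libraries had 84.3 and 92.0 CPM with miR-375, against 85.6 and 88.5 CPM in controls, with groups that overlapped. TRIM59, a membrane-anchored member, had 15.9 and 15.3 CPM in LNCaP cells with miR-375, against 18.0 and 18.7 CPM in LNCaP controls (-0.23 ± 0.10, adjusted p = 0.0727). In PC3 it had 21.1 and 21.8 CPM with miR-375, against 21.1 and 20.7 CPM in controls (0.04 ± 0.09, adjusted p = 0.803). It shares 19.8% of its exon length with SMC4, a chromosome condensation gene on the opposite strand. TRIM13, anchored in the endoplasmic reticulum, rose in PC3 (0.36 ± 0.10, adjusted p = 0.00356; 0.0654 without the first PC3 control). TRIM23, which carries an ADP-ribosylation factor domain, had 42.6 and 39.7 CPM in LNCaP cells with miR-375, against 36.0 and 34.1 CPM in LNCaP controls (0.23 ± 0.09, adjusted p = 0.0343); the call ended without the second LNCaP control (0.118) or the first LNCaP library with miR-375 (0.150).

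Among the remaining members, TRIM31 had a large relative rise in PC3. TRIM31, an epithelial ligase that limits the NLRP3 inflammasome, had 5.43 and 5.65 CPM in PC3 cells with miR-375, against 1.60 and 1.84 CPM in PC3 controls, a 3.22-fold rise (1.69 ± 0.29, adjusted p = 8.27e-06). TRIM52, which has a RING but no PRY-SPRY domain, had 13.5 and 14.6 CPM in PC3 cells with miR-375, against 9.14 and 8.64 CPM in PC3 controls (0.66 ± 0.13, adjusted p = 6.26e-05); 28.5% of its exon length is shared with a gene on the opposite strand, and the library protocol marks the strand, but whether the counting used it is not stated. TRIM4, a ligase that also acts on RIG-I, rose in PC3 (0.33 ± 0.07, adjusted p = 0.000137). TRIM11, a ligase with a PRY-SPRY domain, had 33.9 and 36.8 CPM in LNCaP cells with miR-375, against 50.1 and 48.0 CPM in LNCaP controls (-0.47 ± 0.07, adjusted p = 1.21e-06). Its level in PC3 was 33.2 and 32.5 CPM with miR-375, against 30.7 and 32.1 CPM in controls, and it did not pass (0.07 ± 0.07, adjusted p = 0.501). TRIM47, another PRY-SPRY ligase, had 41.1 and 40.8 CPM in PC3 cells with miR-375, against 58.2 and 53.6 CPM in PC3 controls (-0.45 ± 0.07, adjusted p = 2.12e-06). LNCaP gave 16.0 and 17.4 CPM with miR-375, against 20.8 and 21.1 CPM in controls (-0.33 ± 0.08, adjusted p = 0.00214), where the call ended with total-count scaling (0.0576), without the second LNCaP control (0.0501) or without the first LNCaP library with miR-375 (0.0963). Of the exon length of TRIM47, 51.5% is shared with an antisense gene.

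TRIM8, a regulator of cytokine signalling, had 121 and 122 CPM in PC3 cells with miR-375, against 134 and 137 CPM in PC3 controls (-0.16 ± 0.05, adjusted p = 0.00435), a call that ended with total-count scaling (0.154) and without the second PC3 control (0.0501). Its fall in LNCaP was smaller (-0.13 ± 0.05, adjusted p = 0.0309) and did not pass under 8 of 16 alternatives, including leaving out any LNCaP library. TRIM41, a ligase of protein kinase C, fell in PC3 by a small amount (-0.16 ± 0.05, adjusted p = 0.0178), and the call ended with total-count scaling (0.249), without either PC3 control (0.0703 and 0.0679) and without the second PC3 library with miR-375 (0.157). TRIM74 rose in LNCaP (3.34 ± 0.99, adjusted p = 0.00768) on 12 and 12 counts with miR-375 and 2 and 0 in the controls; without the second LNCaP control the adjusted p was 0.102, and near-identical copies (TRIM50, TRIM73) may share its reads.

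The other 16 tested members passed in neither line: TRIM2, TRIM27, TRIM29, TRIM32, TRIM35, TRIM39, TRIM45, TRIM49, TRIM49C, TRIM58, TRIM59, TRIM62, TRIM66, TRIM69, TRIM7 and TRIM73. TRIM27, first known as the RET finger protein, had 112 and 113 CPM in LNCaP cells with miR-375, against 117 and 110.1 CPM in LNCaP controls. PC3 gave 115 and 111 CPM with miR-375, against 119.6 and 117 CPM in controls. The 11 members that were not tested (TRIM10, TRIM17, TRIM34, TRIM43, TRIM48, TRIM49B, TRIM55, TRIM63, TRIM67, TRIM72 and TRIM80P) had 10 to 43 counts over the 8 libraries and at most 0.349 CPM in any library. Among them TRIM43, TRIM48 and TRIM49B have near-identical copies, as do TRIM49 and TRIM49C among those tested. Over 25 listed genes of recent duplicate clusters, 10 were tested, of which 3 rose and 0 fell in LNCaP, and 3 rose and 1 fell in PC3. These calls are all of members described above. All tested genes gave shares of 13.9% rising and 18.7% falling in LNCaP, and 22.2% and 20.8% in PC3.

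The change with miR-375 differed between the lines in 13 of the 50 tested members by the test of the difference itself, the LNCaP change minus the PC3 change. The difference was positive in 2 and negative in 11, against 10.9% and 15.6% of all tested genes, so that 26.0% of members differed beside a background of 26.5%. Total-count scaling gave 4 and 9, and leaving out the first PC3 control or the first PC3 library with miR-375 left none positive. Without the second LNCaP control or the first LNCaP library with miR-375, 7 were negative, and without the second LNCaP control or second LNCaP library with miR-375, 4 and 5 were positive. TRIM33 differed by -0.43 ± 0.08, adjusted p = 4.46e-05, TRIM11 by -0.54 ± 0.10, adjusted p = 7.13e-05, TRIM16L by -0.65 ± 0.12, adjusted p = 3.40e-05, TRIM56 by -0.41 ± 0.07, adjusted p = 3.23e-05 and TRIM54 by -3.17 ± 0.77, adjusted p = 0.00156; these 5 kept their call under all 15 alternatives run for this comparison. TRIM5 differed by 0.32 ± 0.11, adjusted p = 0.0227 and TRIM26 by 0.25 ± 0.08, adjusted p = 0.0229, and both calls ended without the first PC3 control (adjusted p = 0.172 and 0.124) or the first PC3 library with miR-375 (0.0836 and 0.116). TRIM52 differed by -0.73 ± 0.19, adjusted p = 0.00312 (0.0641 without the second LNCaP control) and TRIM13 by -0.48 ± 0.14, adjusted p = 0.00858 (0.0518 without the first PC3 control, 0.0899 without the first LNCaP control and 0.0819 without the first LNCaP library with miR-375). For TRIM22, TRIM25 and TRIM68 the difference did not pass (0.69 ± 0.43, adjusted p = 0.264; -0.08 ± 0.06, adjusted p = 0.405; 0.24 ± 0.11, adjusted p = 0.106).

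The family differed more between the 2 lines than with miR-375, as did all tested genes. Of these, 32.6% changed with miR-375 in LNCaP, 43.0% in PC3, and 80.4% differed between the control lines. In LNCaP controls against PC3 controls, 15 of the 50 tested members were higher and 28 lower, against 41.2% and 39.2% of all tested genes; as shares of the members these were 30.0% and 56.0%. The 2 directions together made 86.0% of members, against 80.4% of all tested genes. None of the 11 tested interferon and antiviral members was higher in LNCaP and 10 were lower, beside 31 of 32 interferon-stimulated genes lower. TRIM58, known from red cell maturation, averaged 0.603 ± 0.00208 CPM in LNCaP controls and 65.4 ± 0.110 CPM in PC3 controls (SD, n = 2 each), and TRIM9 0.0907 ± 0.128 CPM in LNCaP controls and 33.4 ± 2.75 CPM in PC3 controls. TRIM6 had 0 counts in LNCaP controls and 17.8 and 14.4 CPM in PC3 controls, at least 182-fold lower in LNCaP when each LNCaP library is given 3 counts. TRIM31, TRIM71 and TRIM74 completed the 6 lowest among called members in LNCaP relative to PC3, with log2 differences of -4.23, -4.93 and -4.23.

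In the other direction, TRIM36 averaged 18.1 ± 1.12 CPM in LNCaP controls and 0.582 ± 0.236 CPM in PC3 controls. TRIM16 and TRIM16L were higher in LNCaP by 2.10 ± 0.09 and 2.82 ± 0.08 on the log2 scale. TRIM29 had 3.66 and 4.01 CPM in LNCaP controls and 0 counts in PC3 controls, at least 50.2-fold higher in LNCaP with 3 counts in each PC3 library. TRIM54 (4.68) and TRIM49C (2.46, adjusted p = 0.0437) completed the 6 highest among called members. TRIM49 had a log2 difference of 2.77 and was not called (adjusted p = 0.0596). The TRIM49C call rested on 8 and 12 counts in LNCaP against 4 and 0 in PC3; it ended without either LNCaP control (0.0678 and 0.163), without either LNCaP library with miR-375, without the second PC3 control (0.236), with no filter, with DESeq2 and with a replicate block (0.311).

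**Figure D4:**
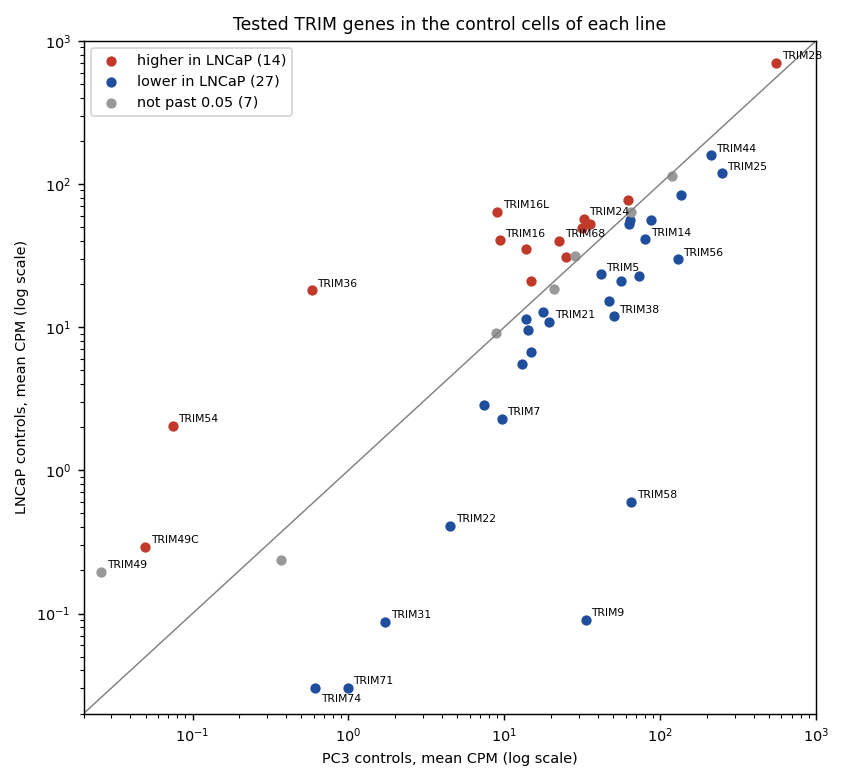
Mean CPM of 48 tested members in LNCaP controls (vertical, log scale) and PC3 controls (horizontal, log scale), coloured by the test between the lines (14 higher in LNCaP, 27 lower, 7 not past 0.05). TRIM6 and TRIM29, at 0 in a group, are not drawn; points far below the diagonal include TRIM58, TRIM9, TRIM22 and TRIM31.

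Per kilobase of exon in GENCODE 29, TRIM28 stood far above the other members in both control lines, at 174 ± 7.12 CPM per kilobase in LNCaP and 138 ± 1.07 in PC3 (SD, n = 2). Next in LNCaP controls came TRIM65 (16.1 ± 0.330), TRIM16L (14.7 ± 0.602) and TRIM27 (14.2 ± 0.572). Next in PC3 controls came TRIM25 (26.1 ± 0.191), TRIM58 (20.3 ± 0.0340) and TRIM47 (17.8 ± 1.03). The spreads of TRIM16L and TRIM27 overlap in LNCaP.

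Relatives with other names and the E2 partners were read beside the members. Of 6 relatives, 4 were tested, of which 1 rose in LNCaP, and 2 rose and 1 fell in PC3. Background shares over all tested genes were 13.9% rising and 18.7% falling in LNCaP, and 22.2% and 20.8% in PC3. PML, the nuclear body protein, averaged 86.6 ± 1.25 CPM in PC3 cells with miR-375 and 73.3 ± 0.0936 CPM in PC3 controls (SD, n = 2 each) and rose there (0.24), with 0.02 in LNCaP, where it did not pass. MID1, which fell in PC3, is the ligase mutated in Opitz syndrome, and its paralogue MID2 rose in LNCaP (0.39). MEFV, the pyrin gene, rose in PC3 from a trace (1.46 ± 0.0130 CPM in PC3 cells with miR-375 and 0.276 ± 0.316 CPM in PC3 controls).

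Of 16 ubiquitin-activating and E2 enzymes, 3 rose and 4 fell in LNCaP, and 5 rose and 9 fell in PC3. The background over all tested genes was 13.9% rising and 18.7% falling in LNCaP, and 22.2% and 20.8% in PC3. UBE2D1, an E2 that many RING ligases use, rose by 0.44 in LNCaP and 0.77 in PC3. UBE2W rose next in LNCaP (0.19) and UBE2D4 in PC3 (0.43). UBE2E2 fell most in both (-0.65 and -0.98), followed by UBE2K in LNCaP (-0.32) and UBE2E3 in PC3 (-0.74).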

How the data were processed

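Per the labels' protocols, poly(A) RNA was sequenced as paired reads of 150 bases from libraries that mark the strand. The deposited table holds raw counts per gene, and the submitters' processing notes name fastp, STAR 2.7.1a, featureCounts, DESeq2 and hg38. No source used here gives the annotation or whether counting used strand. Of 60625 gene lines, 3 broken ones (279 counts) were left out, and lines with no gene name held 0.000258% of counts. Counts were mostly even: 68.1% to 70.3% of values between 1 and 20 per library were even, so low counts may be doubled, and an alternative halved them.

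Counts were fitted in edgeR 4.0.16 (R 4.3.3) with TMM factors, filterByExpr, a single model of 4 groups (4 residual degrees of freedom) and a robust quasi-likelihood test with Benjamini-Hochberg adjustment. The script was tested on simulated data. Alternatives used limma 3.58.1 (voom), DESeq2 1.42.0, other scaling, no filter, each line alone, a replicate block and each library left out. Changes of members called in either line are given, with values per library for the 8 largest in each direction and for members picked by function. The members, lists and tests were chosen with earlier results of these data known. Exon lengths and 3′ UTRs came from GENCODE 29, and miRNA and promoter sequences from RefSeq. 1 fixed gene list and 1 marker sum are not reported here.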

Additional observations from a re-analysis of the deposited data

Results flagged for a closer look

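The change with miR-375 differed between the lines, by the test of the difference itself, in 13 members. Given as the LNCaP change minus the PC3 change on the log2 scale, TRIM54 differed by -3.17, TRIM52 by -0.73, TRIM16L by -0.65, TRIM11 by -0.54, TRIM13 by -0.48, TRIM33 by -0.43 and TRIM56 by -0.41. TRIM5 differed by 0.32 and TRIM26 by 0.25, the only positive differences of the 13. TRIM14 differed by -0.30 (adjusted p = 0.00493), TRIM4 by -0.29 (0.0203), TRIM65 by -0.29 (0.00485) and TRIM69 by -0.26 (0.0474). These last 4 calls, from edgeR's quasi-likelihood test, ended under 5, 9, 4 and 13 of 15 alternatives. With 2 libraries a group, no group was large enough for a check of single libraries standing apart.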

How the results depend on the processing

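The counts of members called depended on scaling and single libraries in LNCaP and in the difference between lines. In LNCaP, total-count scaling gave 3 members lower, with 4719 of all tested genes higher and 2613 lower. DESeq2 size factors in edgeR, no filter on low counts and DESeq2 each gave 5 lower, and leaving out each library in turn gave 4 to 10. For the difference between lines, total-count scaling and DESeq2 size factors gave 4 positive members each, no filter gave 5 positive and 7 negative, and leaving out each library gave 0 to 5 positive and 7 to 12 negative. The other counts stayed within 1.5 times their value. TRIM2 changed sign in LNCaP without the first control (-0.0181) or the first library with miR-375 (-0.0848, with a range to 0.186 over the libraries left out), and in PC3 with total-count scaling (0.0332). TRIM37 in PC3 changed sign with no filter (-0.0121), with PC3 fitted alone (-0.00328), and without each LNCaP library, the first PC3 control or the second PC3 library with miR-375 (range over all libraries left out -0.0469 to 0.0794); neither gene was called. The cause of these shifts was not tested. Same-numbered libraries of a line did not deviate together (correlations 0.0139 in LNCaP and 0.00352 in PC3). This shows no shared shift over the tested genes, but it cannot show whether those libraries were paired in the experiment. A replicate block gave 10 members higher and 10 lower in LNCaP and 18 and 9 in PC3, and ended the calls of TRIM69 in the difference (adjusted p = 0.0604) and TRIM49C between the control lines (0.311). With 2 libraries a group, changes of members under 1 CPM have wide errors.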

Other observations

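Several members lie in 2 clusters of the genome (GRCh38, GENCODE 29). On chromosome 11, TRIM6 (chr11:5596109-5612958), TRIM34 (chr11:5619764-5644398), TRIM5 (chr11:5663557-5938619) and TRIM22 (chr11:5689689-5737089) are neighbours, and the TRIM5 gene spans TRIM22 on the opposite strand. Their changes in PC3 ran in different directions, with TRIM6 at -1.54, TRIM5 at 0.16, which did not pass, and TRIM22 at 0.69. In LNCaP, TRIM5 (0.48) and TRIM22 (1.39) both rose and TRIM6 had 0 counts. TRIM21 (chr11:4384897-4393696) and TRIM68 (chr11:4598672-4608259), on the same arm, rose in both lines.

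On chromosome 6, TRIM31 (chr6:30102897-30113106), TRIM10 (chr6:30151945-30160934), TRIM26 (chr6:30184455-30213427) and TRIM39 (chr6:30326479-30343729) lie in the region of the major histocompatibility complex. TRIM31 rose in PC3 (1.69), TRIM26 rose in LNCaP (0.17), TRIM39 passed in neither line (0.03 in LNCaP and -0.06 in PC3), and TRIM10 was not tested.

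Markers of other cell types and of PC3 were summed in each library. The 5 fibroblast markers summed to 368 to 389.9 CPM in PC3 with miR-375, against 138 to 145 CPM in PC3 controls, where DCN was at 0. In LNCaP they summed to 44.2 to 49.6 CPM with miR-375, against 41.2 to 49.0 CPM in the controls. The 5 endothelial markers summed to 206 CPM in both libraries of PC3 with miR-375, against 368 to 369 CPM in PC3 controls. LNCaP gave 6.40 to 7.06 CPM with miR-375, against 4.93 to 5.21 CPM in the controls. The 5 leukocyte markers summed to at most 1.80 CPM in any library. The 6 PC3 markers summed to 1137 to 1143 CPM in PC3 with miR-375, against 2016 to 2029.9 CPM in PC3 controls. Their part in the members' changes was not tested.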
